A study of Mus musculus with 15 samples.

Results

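The 5 genes described here mark the layers of the cornea and were followed through RNA-seq of mouse eyes. Krt12, Aldh3a1 and Slurp1 are genes of the corneal epithelium, and Kera and Lum are genes of the corneal stroma. They were taken by gene symbol from 20418 symbols in the table of each library, with 1 transcript per symbol, the one with the highest mean read count. All 5 had an entry in all 15 tables, and Slurp1 had 0 reads in 5 of them. In the tables they are Krt12 (NM_010661, chromosome 11, 1854 exonic bases), Aldh3a1 (NM_007436, chromosome 11, 1727), Slurp1 (NM_020519, chromosome 15, 525), Kera (NM_008438, chromosome 10, 1950) and Lum (NM_008524, chromosome 10, 2075). Aldh3a1 was the only one of them with a second transcript.

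The study examined how Egr1, a zinc finger transcription factor, bears on eyelid development in BALB/c mice. RNA came from whole eyes with their eyelids. An Egr1-/- line on C57BL/6 had been crossed back to BALB/c over 5 generations in a first round and 4 in a second, and the labels do not say which round gave which library. Adults gave 3 of the 15 libraries (1 wild type and 2 Egr1-/-) and newborns 4 (2 of either genotype). The other 8 were made from the right and the left eye of 4 mice 3 days after birth. In the Egr1-/- mice E24 and E29 the eyelids were open on 1 side and closed on the other, in the Egr1-/- mouse E32 they were open on both sides, and in the Egr1+/- mouse E28 closed on both. The labels of adult and newborn libraries name no animals, so that p-values measure only the spread between these libraries.

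The cornea is the clear front of the eye, a stratified epithelium over a stroma of ordered collagen fibrils. Krt12 encodes keratin 12, which pairs with keratin 3 or keratin 5 in filaments of the differentiated corneal epithelium. Aldh3a1 encodes an aldehyde dehydrogenase that is among the most abundant soluble proteins of the mouse cornea, and Slurp1 encodes a secreted protein of the Ly6 and uPAR family. Kera (keratocan) and Lum (lumican) encode small leucine-rich proteoglycans that carry keratan sulphate and set the spacing of stromal collagen. Kera is largely limited to corneal keratocytes, while Lum is also made in sclera, skin and other connective tissue. In mice the eyelids fuse before birth and reopen in the second week, and the corneal epithelium matures around that time. Levels in whole eyes depend on the share of a tissue in the sample, so that fewer cells of a type and less RNA per cell cannot be told apart.

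Libraries held 20334849 to 43907093 reads in transcripts. Levels are given as scaled RPKM (reads per kilobase of exon, scaled to a TMM-adjusted library total). Egr1 went against the genotype labels, at 10.8 to 19.8 in the 3 wild types, 32.3 and 35.9 in the heterozygous eyes and 51.0 to 119 in the 10 libraries labelled knockout. These are called labelled knockout, and every direction below rests on the labels. In 2 libraries markers of inner eye tissues were low. The summed lens markers (7 genes) were at 325 in newborn labelled-knockout replicate 1 and 8149 in adult labelled-knockout replicate 1, against 37210 to 67170 in the others, and summed rod markers (6 genes) in these 2 were 14.3 against 52.0 to 261 and 8920 against 13390 and 16990 at the same age. The left eye of E32 had the lowest rod marker sum of day 3 (9.07 against 66.3 to 227), and the right eye the highest sum of eyelid epidermis markers (6 genes), at 2297.

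Before the levels, the sequence just upstream of 1 epithelial and 1 stromal gene is shown. RefSeq promoter entries of GRCm38.p6 matched only these 2 of the 5 genes. Any bearing of these sequences on the levels was not tested. The 250 bases before the transcription start of Krt12 are chr11:99422260-99422509 on the minus strand, and those of Kera are chr10:97606955-97607204 on the plus strand. Capitals mark CACCC on either strand (GGGTG where it lies on the other), the core bound by Klf4 and related factors, and TATAAA on the strand of the gene.
Krt12: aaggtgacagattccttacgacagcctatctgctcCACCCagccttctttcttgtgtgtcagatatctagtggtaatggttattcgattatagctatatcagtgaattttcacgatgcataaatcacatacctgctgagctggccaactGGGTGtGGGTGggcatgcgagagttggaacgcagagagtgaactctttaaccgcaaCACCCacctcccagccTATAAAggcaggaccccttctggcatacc
Kera: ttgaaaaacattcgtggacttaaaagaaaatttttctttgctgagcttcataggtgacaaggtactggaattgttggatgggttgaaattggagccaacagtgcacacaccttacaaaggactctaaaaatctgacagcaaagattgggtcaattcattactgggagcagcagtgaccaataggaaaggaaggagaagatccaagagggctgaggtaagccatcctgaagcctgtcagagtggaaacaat
Krt12 held CACCC at 4 places, with first bases 215, 101, 95 and 45 bases before the start, and TATAAA 29 bases before it. None of these was found in the window of Kera. Neither window held TGANTCA, an AP-1 motif, or GCGTGGGCG, the Egr1 motif. Of 32851 promoter windows of this length searched on both strands, 52.0% held CACCC at least once and 2.14% at least 4 times, 12.4% held TATAAA, 6.75% held TGANTCA and 0.536% held GCGTGGGCG. These are matches of letters and not binding sites.

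Krt12 had its highest level in adults. It was 3458 scaled RPKM in the adult wild type, 1.42 in adult labelled-knockout replicate 1 and 2082 in replicate 2. In newborns it was 7.59 and 15.8 (wild type) and 4.17 and 9.41 (labelled knockout). At day 3, open eyes had 22.6 (E24), 19.9 (E29), 13.2 and 18.0 (right and left of E32), closed labelled-knockout eyes 50.7 (E24) and 64.8 (E29), and the heterozygous eyes 56.7 and 57.5. The order of group means was thus adult wild type, adult labelled knockout, closed labelled knockout, heterozygous, open, newborn wild type and newborn labelled knockout. Neighbours in that order overlapped, except that the adult wild type lay above both adult knockouts and the heterozygous eyes above the open ones. The 2 adult knockouts spanned the range of all younger groups. The lowest adult value was below every newborn value.

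Aldh3a1 was also an adult gene, at 2685 scaled RPKM in the wild type and 420 and 1885 in the labelled knockouts. In newborns it was 5.40 and 5.69 (wild type) and 35 and 15.6 (labelled knockout). Day 3 values were 2.87 (E24), 11.4 (E29), 25.8 and 19.2 (E32) in open eyes, 4.30 (E24) and 14.8 (E29) in closed eyes, and 5.28 and 22.3 in the 2 eyes of the heterozygous mouse. All 3 adult libraries lay above all 12 young ones, and both newborn labelled knockouts above both wild types, while the day 3 groups overlapped one another. Group means were in the order adult wild type, adult labelled knockout, newborn labelled knockout, open, heterozygous, closed labelled knockout and newborn wild type, and from the newborn labelled knockout on each group overlapped the next. The 2 heterozygous eyes of 1 animal differed 4.23-fold, more than the 1.50-fold and 1.30-fold between the closed and the open eye of E24 and E29.

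Slurp1 was close to the limit of detection in young eyes. It was 248 scaled RPKM in the adult wild type and 0.838 and 146 in the adult labelled knockouts, from 2836, 10 and 1654 reads. In newborns 0 and 11 reads (wild type) and 16 and 0 (labelled knockout) were found. A count of 0 allows up to 3 reads, which is 0.272 and 0.220 scaled RPKM in these 2 newborn libraries (counting error only). At day 3, 70 reads (4.65 scaled RPKM) were found in the right eye of E32 and at most 4 in any other eye. Among the 12 young libraries, the next highest was 1.02 scaled RPKM in newborn labelled-knockout replicate 1. All young groups overlapped in this gene.

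Kera had no steep step between ages. It was 34.2 scaled RPKM in the adult wild type, 3.63 and 23.6 in the adult labelled knockouts, 25.2 and 29.7 in newborn wild types and 31.6 and 24.4 in newborn labelled knockouts. At day 3 it was 28.2 (E24), 5.62 (E29), 7.07 and 15.3 (E32) in open eyes, 22.3 (E24) and 17.8 (E29) in closed eyes, and 13.8 and 11.4 in heterozygous eyes. The lowest value of the 15 was that of adult labelled-knockout replicate 1. Group means were in the order adult wild type, newborn labelled knockout, newborn wild type, closed labelled knockout, open, adult labelled knockout and heterozygous. Neighbours in it overlapped, except that the adult wild type lay above the newborns and both newborn wild types above both closed eyes.

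Lum was highest in newborn labelled knockouts, at 166 and 122 scaled RPKM, and these did not overlap with any other group. Newborn wild types had 48.1 and 62.9, the adult wild type 53.8 and adult labelled knockouts 67.7 and 57.8. At day 3 it was 56.8 (E24), 36.7 (E29), 32.9 and 66.6 (E32) in open eyes, 28.5 (E24) and 40.4 (E29) in closed eyes, and 22.6 and 26.7 in heterozygous eyes. The next groups by mean, from adult labelled knockout through newborn wild type, adult wild type and open to closed labelled-knockout eyes, each overlapped their neighbour, and the heterozygous eyes lay below all of these. Adult labelled-knockout replicate 1, lowest for the other 4 genes among adults, had the highest adult level of Lum.

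**Figure D1:**
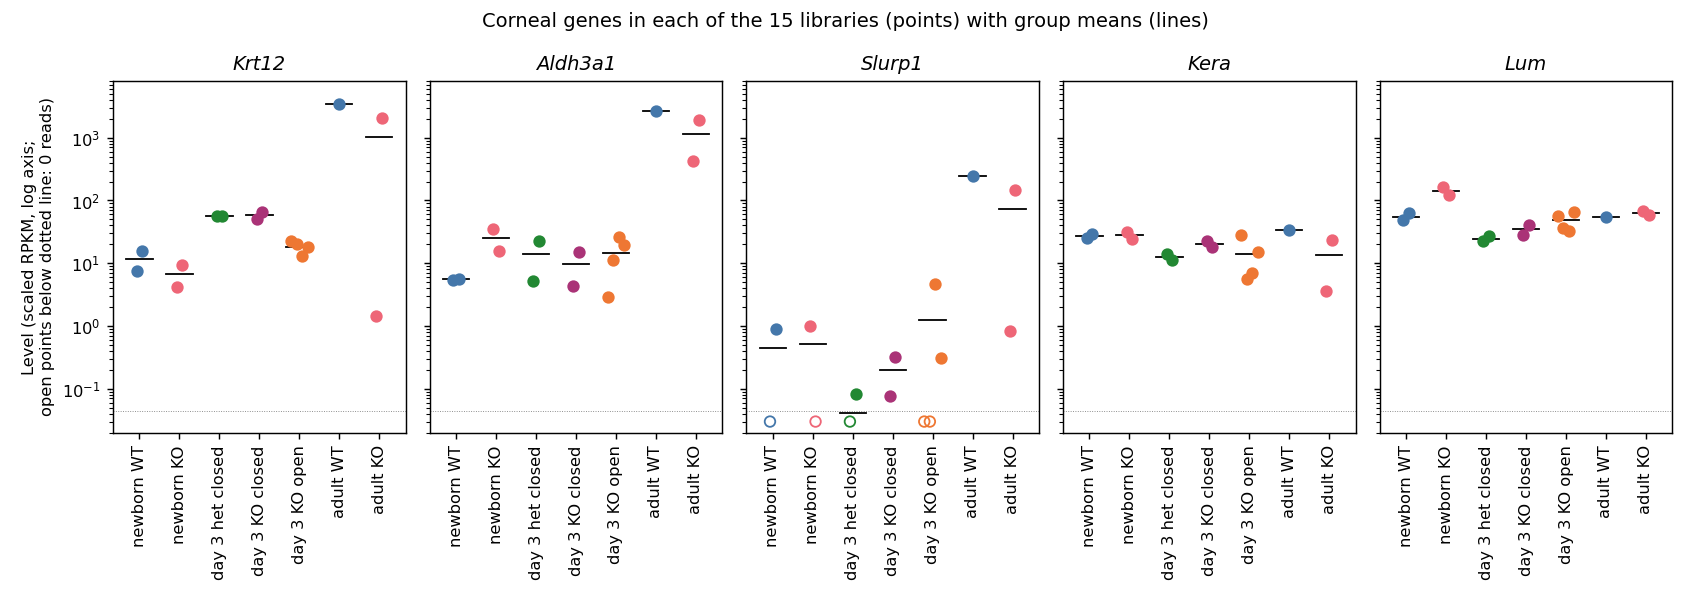
Levels of the 5 corneal genes in each of the 15 libraries (points, scaled RPKM on a log axis) by group, with the group mean as a line; open points below the dotted line are libraries with 0 reads. Krt12 in adults runs from 1.42 to 3458, and Lum in the newborn labelled knockouts (122 and 166) lies above all other groups.

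To set the epithelial against the stromal genes, the mean log2(deposited RPKM + 0.1) of Kera and Lum was subtracted from that of Krt12, Aldh3a1 and Slurp1. This contrast was 4.94 in the adult wild type and 4.49 in adult labelled-knockout replicate 2, but -0.92 in replicate 1. In newborns it was -4.31 and -3.26 (wild type) and -3.72 and -4.43 (labelled knockout), so that the genotypes overlapped. Closed eyes at day 3 had -2.82 (E24), -1.84 (E29), -2.36 and -1.44 (heterozygous), and open eyes -4.31 (E24), -2.22 (E29), -0.38 and -2.60 (E32). Open and closed eyes overlapped, and the open eye was the lower one in both mice that had 1 of each. With 1 RPKM added instead of 0.1, this order held in E24 (-3.07 open and -1.86 closed). In E29 it then turned (-1.19 open and -1.25 closed). The log2 ratio of summed levels, in which abundant genes weigh more, was above 0 in all 4 closed eyes (0.12 to 1.07) and in the right eye of E32 (0.13), and below 0 in the other 3 open eyes (-1.74 to -0.43). In adult labelled-knockout replicate 1 that ratio was 2.57, and Aldh3a1 was there above both stromal genes while Krt12 and Slurp1 were below both. The ratio of Krt12 to Aldh3a1 was 1.29 and 1.10 in the other adults, 0.00339 in this library, 1.41 and 2.78 in newborn wild types and 0.119 and 0.603 in newborn labelled knockouts.

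**Figure D2:**
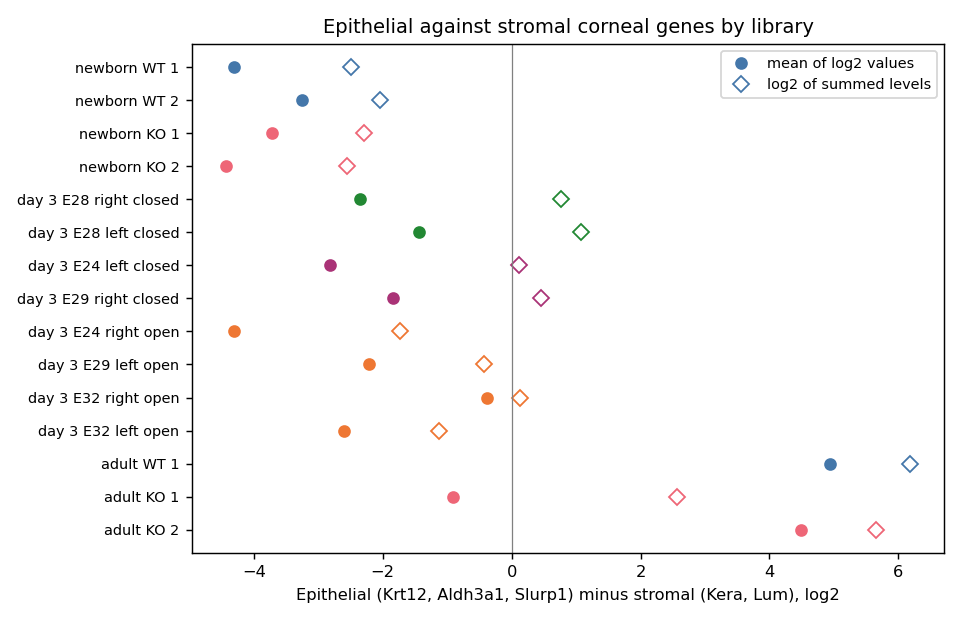
Epithelial minus stromal corneal genes for each library on a log2 axis, as a mean of log2 values (filled points) and as the log2 of summed levels (open diamonds). Adult wild type and adult labelled-knockout replicate 2 are at 4.94 and 4.49, adult labelled-knockout replicate 1 at -0.92, and the newborns between -4.43 and -3.26.

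Age was compared within each genotype, adult against newborn, by edgeR over 17592 genes. In the wild type (1 against 2 libraries), Aldh3a1 rose by 8.89 ± 1.03 (log2 difference ± SE, adjusted p = 0.00117) and Slurp1 by 8.99 ± 2.43 (adjusted p = 0.0279). Krt12 differed by 8.17 ± 2.72, which did not pass (adjusted p = 0.0572), Kera by 0.28 ± 0.83 and Lum by -0.08 ± 0.30. Thus 2 of 3 epithelial and 0 of 2 stromal genes rose, where 32.6% of all genes were called, 18% higher and 14.6% lower. For Slurp1 the newborn side was near the limit of detection, with 11 reads in both libraries together against 2836 in the adult. With a single adult wild type, its spread was taken from the other groups. Krt12 passed when either adult labelled knockout was left out (adjusted p = 6.26e-05 for replicate 1 and 7.45e-05 for replicate 2), after which the spread comes from newborns alone, and the call for Slurp1 was lost without newborn wild-type replicate 1 (8.11, adjusted p = 0.174) or replicate 2 (14.60, adjusted p = 0.136). By DESeq2, Krt12 passed (adjusted p = 0.00975) and Slurp1 did not (adjusted p = 0.067).

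In the labelled knockout (2 against 2), Aldh3a1 rose by 5.52 ± 0.87 (adjusted p = 0.00258) and Slurp1 by 7.08 ± 2.19 (adjusted p = 0.0383), while Lum fell by 1.20 ± 0.25 on the log2 scale (adjusted p = 0.00801). Krt12 differed by 7.27 ± 2.54 (adjusted p = 0.0577) and Kera by -1.04 ± 0.70 (adjusted p = 0.283). Over all genes 39.7% were called, 19.3% higher and 20.4% lower. Slurp1 again had few newborn reads, 16 in both libraries together against 1664 in the 2 adults. Both adult libraries had less Lum than both newborns, and Aldh3a1 and Lum passed without any 1 of the 7 libraries (without adult labelled-knockout replicate 1, which stood apart, at 6.23 and -1.31, and without newborn labelled-knockout replicate 1 at 6.21 and -0.96). The value for Krt12 turned on which adult library was kept, and was 8.27 (adjusted p = 6.48e-05) without adult labelled-knockout replicate 1 and -2.23 (adjusted p = 0.0433) without replicate 2, each time with the spread from newborns alone. On that basis the value for Kera was -2.92 without replicate 2 (adjusted p = 0.000133). Slurp1 lost its call on leaving out adult labelled-knockout replicate 2 (0.66, adjusted p = 0.745) or any 1 of the 4 newborn libraries (adjusted p 0.0848 to 0.137). By DESeq2, Krt12 passed (adjusted p = 0.00359) and Slurp1 did not (adjusted p = 0.0685).

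Other genes of the 2 layers were read from lists of 30. Over all genes tested, 18% were called higher with age and 14.6% lower in the wild type, and 19.3% and 20.4% in the labelled knockout. Of 29 other corneal epithelium genes tested, 22 rose with age in the wild type (median 2.82, against -0.08 over all genes tested) and 7 in the labelled knockout (median 0.62, against -0.01). Among them were the water channels Aqp5 (8.36 ± 0.90 and 4.82 ± 0.74) and Aqp3 (4.13 ± 0.41 and 1.31 ± 0.34). Klf4, a transcription factor of the corneal surface, rose by 3.30 ± 0.50 in the wild type, with 1.22 ± 0.42 (adjusted p = 0.0553) in the labelled knockout. Of 29 other stromal genes, 7 rose and 6 fell in the wild type (median -0.02), and 4 rose and 17 fell in the labelled knockout (median -1.29). The 7 epithelial rises in the labelled knockout and the stromal counts in the wild type were near the shares over all genes. Angptl7, a secreted protein of stroma and trabecular meshwork, rose by 4.01 ± 0.25 and 4.44 ± 0.23, while in the labelled knockout the collagens Col5a2 (-3.89 ± 0.34) and Col6a2 (-3.89 ± 0.38) fell. The rises of the epithelial list in the labelled knockout numbered 2 without either newborn wild type, and 3 without adult labelled-knockout replicate 2 or newborn labelled-knockout replicate 2. In the wild type 4 rises and 2 falls of the stromal list were called without newborn wild-type replicate 1, and 1 fall without replicate 2.

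Newborn eyes were compared between genotypes (2 against 2). Lum rose in the labelled knockout by 1.37 ± 0.25 (log2 difference ± SE, edgeR adjusted p = 0.00915), from 55.5 ± 10.4 to 144 ± 31.1 scaled RPKM (SD, n = 2 each). Aldh3a1, with both labelled knockouts above both wild types, differed by 2.18 ± 0.75 and did not pass (adjusted p = 0.0771). Differences of Krt12 (-0.80 ± 1.96), Slurp1 (0.18 ± 3.17) and Kera (0.02 ± 0.69) were within their SE. Of the 5 genes 1 was called, where 24% of all genes were called (14.6% higher and 9.38% lower). Lum passed without newborn labelled-knockout replicate 1, which stood apart (1.13, adjusted p = 0.0422). It did not pass without newborn wild-type replicate 1 (1.21, adjusted p = 0.0831) or replicate 2 (1.59, adjusted p = 0.0554), and Aldh3a1 passed when either adult labelled knockout was left out (2.18, adjusted p = 0.0094 for replicate 1, and 2.20, adjusted p = 0.00705 for replicate 2) and in 4 of 9 other settings (log2 difference 2.01 to 2.34, adjusted p 0.000697 to 0.0929 over the 9).

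Around them, 23 of 29 other corneal epithelium genes rose and 1 fell in newborn labelled knockouts (median 2.61, against -0.07 over all genes). Over all genes 14.6% were called higher and 9.38% lower. Cdh1, the cadherin of epithelial junctions, rose by 2.80 ± 0.25, the Ets factor Ehf by 3.15 ± 0.33, Aqp3 by 3.22 ± 0.37 and the Krüppel-like factor Klf5 by 2.90 ± 0.35. The basal keratins Krt14 and Krt5, shared by cornea, conjunctiva and skin, rose by 3.62 ± 0.54 and 3.04 ± 0.59. The 1 that fell was Pax6 (-0.74 ± 0.20), the eye field factor, which lens and retina express too, and it was not called with the authors' library totals. Of the 29 genes, 25 had values above 0. Below 0 but not called were Tkt (-0.34 ± 0.42), Aldh1a1 (-1.33 ± 0.66) and Krt24 (-1.74 ± 1.00), as was Krt12 itself. Of 29 stromal genes, 18 rose (median 1.34), led by Foxc1 (2.49 ± 0.29), a factor of the neural crest that forms the stroma, and B4galt1 (1.48 ± 0.21), Col12a1 (1.34 ± 0.21) and Tgfbi (3.01 ± 0.50). Among 15 other small leucine-rich proteoglycans, the family of Kera and Lum, 7 rose (6 of the 15 are on the stromal list too) and Optc of the ciliary body fell (-3.92 ± 0.60). Bgn (1.77 ± 0.37), Ecm2 (1.09 ± 0.24) and Tsku (1.16 ± 0.26) rose with Lum. Of 10 genes of keratan sulphate synthesis 5 rose (median 0.99), and of 18 aldehyde dehydrogenases 4 rose (median 0.20), Aldh1a3 by 2.30 ± 0.21.

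Markers of other tissues differed in the same newborn libraries. All 6 conjunctiva markers rose (Krt13 by 5.48 ± 0.60 and Krt8 by 2.33 ± 0.19), with a summed level of 1425 and 2638 against 153 and 170 in the wild types. Of 6 markers of skin fibroblasts and sclera, tissues that also make Lum, 4 rose, with a sum of 200 and 272 against 75.8 and 107. Of 5 neutrophil markers, 4 rose (median 3.72), with a sum of 70.3 and 112.9 against 6.48 and 4.22. All 6 rod markers fell, and none of these 4 marker lists had a gene at 0 in a newborn library. Their part in the results for Lum and for the epithelial and stromal lists was not tested. Without newborn wild-type replicate 1 no gene was called, and without replicate 2, 11 epithelial and 2 stromal genes rose. Without newborn labelled-knockout replicate 1, 10 stromal genes and none of the proteoglycans rose.

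Adult eyes were compared between genotypes (2 against 1), and none of the 5 genes passed, nor did any of 17592 genes (0% called by edgeR, 506 at an unadjusted p under 0.05, and 107 by DESeq2). The log2 differences were -1.70 ± 2.27 for Krt12, -1.19 ± 0.84 for Aldh3a1, -1.73 ± 1.74 for Slurp1, -1.30 ± 0.82 for Kera and 0.25 ± 0.30 for Lum, each with an adjusted p of 1. The 2 labelled knockouts differed far more from each other than replicate 2 did from the wild type. Replicate 2 was below the wild type by 0.73 (Krt12), 0.51 (Aldh3a1), 0.77 (Slurp1) and 0.54 (Kera) in log2 size and above it by 0.10 for Lum. Replicate 1 had 2428-fold less Krt12 than the wild type, 296-fold less Slurp1, 9.41-fold less Kera and 6.39-fold less Aldh3a1. With 1 labelled knockout left out, adults have 1 library a group and the spread comes from newborns alone, so that a p-value then holds no adult variation. Without replicate 2, Krt12 (-11.22, adjusted p = 0.00352), Slurp1 (-8.17, adjusted p = 0.0115) and Kera (-3.21, adjusted p = 0.00331) were past the threshold on that basis. Without replicate 1 the differences were -0.70, -0.73 and -0.50, and 49 genes in all were called (205 without replicate 2, 13 when newborn labelled-knockout replicate 1 was left out, and 3 when newborn replicate 2 was).

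The size of the low values in that library differed between corneal genes. Of 28 other epithelium genes with a mean of at least 1 RPKM in adults, 0 were below 20% of both other adults, but 20 (71.4%, against 38.8% of all genes) were below both and 1 was above both. Aqp5 was at 21.5% of the wild type and 21.2% of replicate 2, and Tkt at 150 scaled RPKM against 612 and 331. Of 29 stromal genes 11 were below both and 1 was below 20% of both (Chst5, a sulphotransferase of corneal keratan sulphate, at 0.864 against 15.5 and 11.8 scaled RPKM). Over all 13819 such genes 44 were below 20%, or 0.318%, and 3 of these were Krt12, Slurp1 and Kera. Keratins of the basal epithelium were present, with Krt5 at 1296 (3042 and 2489 in the others), Krt15 at 1331 (1228 and 1503) and Krt14 at 613 (273 and 840). Psca, a Ly6 gene of surface epithelia, was at 129 (297 and 383), and Dcn, the most abundant proteoglycan of the list, at 296 (251 and 255). Lypd2, the next gene beyond Slurp1, was at 5.10 (982 and 473), and Slc4a11, a transporter of the corneal endothelium, at 1.03 (17.9 and 12.8). Of the 44 genes, 8 were lens crystallins, and 3 of the 7 lens markers (Bfsp1, Lim2 and Lgsn, not crystallins) were among them too. Summed lens markers were at 8149 against 37210 and 50550 and rod markers at 8920 against 16990 and 13390, while lacrimal and meibomian gland markers were at 103.5 against 7.99 and 9.93, of which 82.9 came from Lcn11 alone (0 and 0.285 in the others). Other marker lists set both labelled knockouts apart from the single wild type, with summed levels (replicates 1 and 2 against wild type) of 436 and 664 against 14.0 for epidermis, 3703 and 6335 against 1296 for conjunctiva and 270 and 72.6 against 16.2 for neutrophils. Of the neutrophil sums, Lcn2 alone gave 220 and 12.0 against 13.1, and S100a9 gave 37.5 and 46.9 against 1.97. The part of tissue content in the adult values was not tested.

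**Figure D3:**
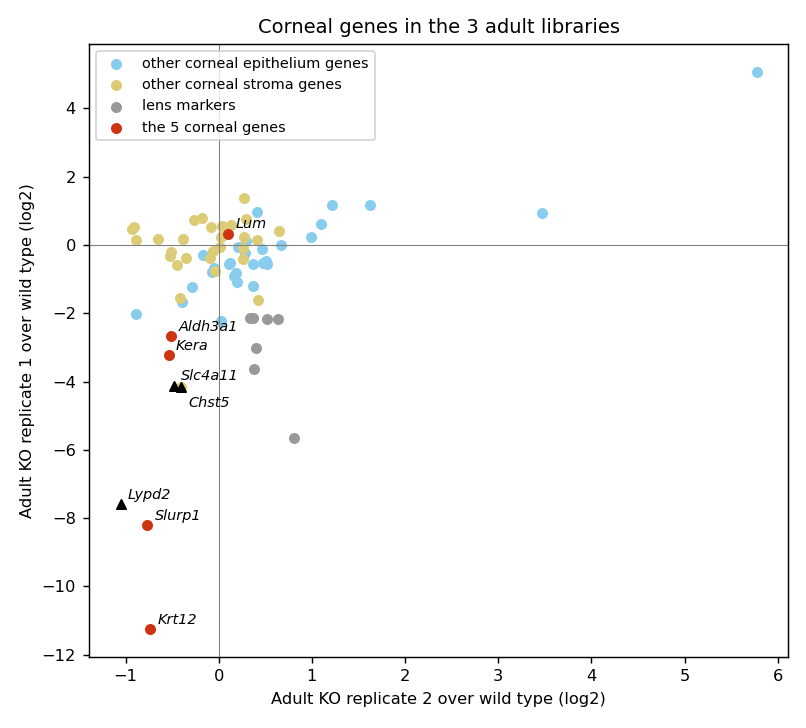
Log2 ratio of each adult labelled knockout to the adult wild type (replicate 2 on the x axis, replicate 1 on the y axis) for the 5 corneal genes (red), other genes of the corneal epithelium and stroma, lens markers, and 3 named genes (triangles). Krt12 lies at -11.25 and Slurp1 at -8.21 for replicate 1, and most other corneal genes lie closer to 0.

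Whether the genotype effect was unequal at the 2 ages (adult minus newborn) was tested directly, and it was called for none of the 5 genes by edgeR (2 at an unadjusted p under 0.05, and 1 by DESeq2, Lum), where 2.8% of all genes were called (0.995% higher and 1.8% lower). It was -3.37 ± 1.12 for Aldh3a1 (adjusted p = 0.142), whose levels were higher in labelled knockouts at birth and lower in adults, and -1.12 ± 0.38 for Lum (adjusted p = 0.152). Without adult labelled-knockout replicate 2, where the spread again comes from newborns alone, Aldh3a1 was past the threshold (-4.86, adjusted p = 0.0127), as were Krt12 (-10.45), Slurp1 (-8.38) and Kera (-3.25).

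Day 3 labelled-knockout mice, with the reads of both eyes summed, were compared with newborn labelled knockouts (3 against 2). Lum fell by 1.72 ± 0.20 on the log2 scale (adjusted p = 0.00584), where 6.7% of 17980 genes were called lower and 11.1% higher. The newborn labelled knockouts also served in the newborn genotype and age comparisons, so that the results for Lum in all 3 share these 2 libraries. The values of Krt12 (2.20 ± 1.81), Aldh3a1 (-0.95 ± 0.79), Slurp1 (0.82 ± 2.35) and Kera (-0.80 ± 0.66) did not pass. With Lum fell 5 of 29 other stromal genes, among them Dcn (-1.43 ± 0.25), Ogn (-1.20 ± 0.23) and Epyc (-2.42 ± 0.52), and 5 of 15 proteoglycans. Dcn, Ogn and Epyc are on both lists, so that Aspn (-2.24 ± 0.22) and Ecm2 (-1.44 ± 0.24) were the proteoglycan falls not yet counted, while Optc rose (3.95 ± 0.66). No other gene of the corneal epithelium was called by edgeR (median -0.45, against -0.08 over all genes, 5 of 29 at an unadjusted p under 0.05, and 5 by DESeq2). Without E32, whose eyes were both open, 16 of them fell, and with closed eyes alone 22 did. Calls over all genes grew in the same settings, from 3207 to 6149 without E32 and 6938 with closed eyes alone. Lum did not pass without newborn labelled-knockout replicate 1 (-1.49, adjusted p = 0.0723), where no gene was called. The 5 stromal falls were 3 without either newborn wild type or E24, 1 without newborn labelled-knockout replicate 2 or E29, 8 without E28 and 13 without E32, and the 5 proteoglycan falls were 3 without newborn labelled-knockout replicate 2 or E29. The authors' library total was 0.890 to 0.900 of the reads in transcripts in the 8 day 3 eyes and 0.954 to 1.32 in the 4 newborns. The highest ratio was that of newborn wild-type replicate 1, which is on neither side of this contrast. In the newborn labelled knockouts these totals were 31344882 and 28773300, against 32186113 and 30154706 reads. Age and any difference in processing thus cannot be told apart.

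Open and closed eyelids at day 3 were compared over 8 eyes with the mouse as a block, so that E24 and E29 carried the contrast. Krt12 fell in open eyes by 1.41 ± 0.21 on the log2 scale (adjusted p = 0.0482). It was 2.24-fold lower in the open than in the closed eye of E24 and 3.25-fold lower in E29, while the 2 eyes of a mouse in 1 state differed 1.36-fold (E32) and 1.02-fold (E28). The 4 open eyes (13.2 to 22.6) and 4 closed eyes (50.7 to 64.8) did not overlap. These eyes are not independent, since both eyes of E32 are among the open and both of the heterozygous E28 among the closed. How many of all genes part the eyes in this way was not counted. Krt12 was 1 of 9 genes called lower among 15754 (0.0571%), and 0.457% were called higher. Aldh3a1 (-0.46 ± 0.59), Kera (-0.63 ± 0.53) and Lum (0.45 ± 0.38) did not pass, and Slurp1 had too few reads to be tested. Kera was higher in the open eye of E24 (1.27-fold) and lower in that of E29 (3.17-fold). Lum was 1.99-fold higher in the open eye of E24, with a ratio of 0.907 in E29. The call for Krt12 was lost without E24 (-1.68, adjusted p = 0.334), E29 (-1.16, adjusted p = 0.913) or E28 (-1.42, adjusted p = 0.0998), with the authors' library totals (-1.45, adjusted p = 0.068) and with all transcripts of a gene summed (adjusted p = 0.0547). It held without E32 (-1.43, adjusted p = 0.0083) and without only its right eye (adjusted p = 0.0109).

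**Figure D4:**
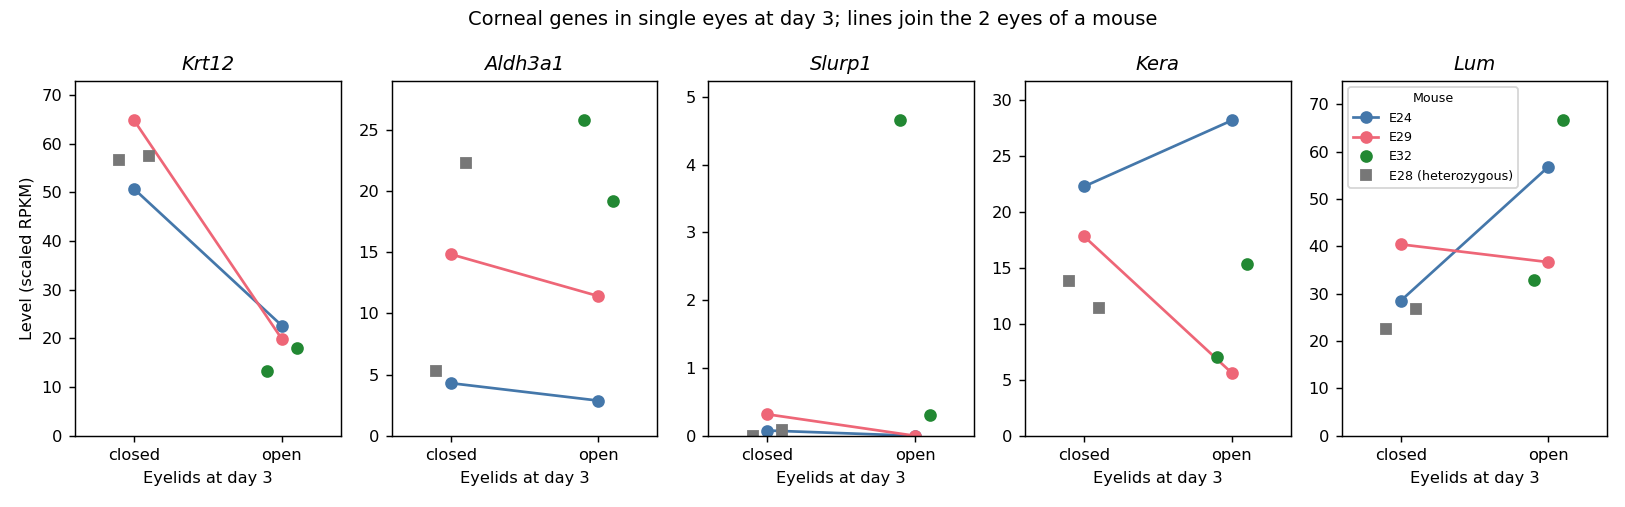
Levels of the 5 corneal genes (scaled RPKM, linear axes from 0) in the 8 eyes at day 3 by eyelid state; colours mark mice, lines join the closed and the open eye of E24 and of E29, and squares are the heterozygous mouse E28. Krt12 lies at 50.7 to 64.8 in closed and 13.2 to 22.6 in open eyes.

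Most other genes of the epithelium list went the other way. Of 28 tested, 9 rose in open eyes and none fell (median 1.41, against 0.02 over all genes), where 0.457% of all genes were called higher. Of the 28, 25 had positive values, while Tkt (-0.14 ± 0.21), Pax6 (-0.16 ± 0.31) and Aldh1a1 (-0.01 ± 0.14) had negative ones. Krt14 and Krt5, which rose, are shared by cornea, conjunctiva and skin. Krt14 rose by 3.92 ± 0.28, from 59.9 (E24) and 92.5 (E29) scaled RPKM in closed eyes to 789 and 1563 in the open eyes of the same mice. Krt5, a basal keratin that can pair with keratin 12, rose by 2.06 ± 0.22, Sfn by 2.92 ± 0.23, Aqp3 by 2.03 ± 0.16 and Psca by 5.41 ± 0.51. No stromal gene of 29 was called by edgeR (median -0.09, 5 at an unadjusted p under 0.05, and 2 by DESeq2). Of 17 aldehyde dehydrogenases, Aldh1a3, which makes retinoic acid, was the 1 that rose (1.78 ± 0.20). It was at 31.1 to 50.7 scaled RPKM in the 4 open eyes and 9.54 to 11.8 in the 4 closed eyes.

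Markers of conjunctiva and of lid glands moved with these genes. Of 6 conjunctiva markers, 3 rose in open eyes (Krt4 by 3.10 ± 0.26, Krt7 by 1.88 ± 0.22 and Krt13 by 4.38 ± 0.58), and their sum was 921 to 2001 in open against 137 to 372 in closed eyes, with 1 gene at 0 in 1 closed eye. Lacrimal and meibomian gland markers summed to 36.1 to 54.0 in open and 7.70 to 10.6 in closed eyes, and 1 of 6 rose, Far2, which makes fatty alcohols of meibomian lipid (3.22 ± 0.16, adjusted p = 0.000906). Epidermis markers summed to 30.9 to 2297 in open and 6.86 to 12.8 in closed eyes, with none called, and 1 of 6, Flg2, was at 0 in 1 open and all 4 closed eyes. Their part in the fall of Krt12 was not tested. Without E24 or E29 none of the 9 epithelial genes was called, and with these 2 mice alone 15 were.

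Labelled-knockout and heterozygous mice at day 3 (3 against 1, eyes summed) were also compared. None of the 5 genes was called, and none of 16453 genes was (0% by edgeR, 273 at an unadjusted p under 0.05, and 93 by DESeq2). Of the labelled-knockout eyes 4 were open and 2 closed, while both heterozygous eyes were closed. Over both eyes, genotype and eyelid state thus cannot be told apart. Krt12 differed by -0.85 ± 0.54 over both eyes, and by 0.05 when closed eyes alone were compared, where its levels were 50.7 and 64.8 against 56.7 and 57.5. Lum differed by 0.87 ± 0.26 (unadjusted p = 0.0223, adjusted p = 0.999), Kera by 0.35 ± 0.57, Aldh3a1 by 0.08 ± 0.99 and Slurp1 by 4.57 ± 3.23. With a single heterozygous mouse, the spread came from the 3 labelled knockouts.

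**Figure D5:**
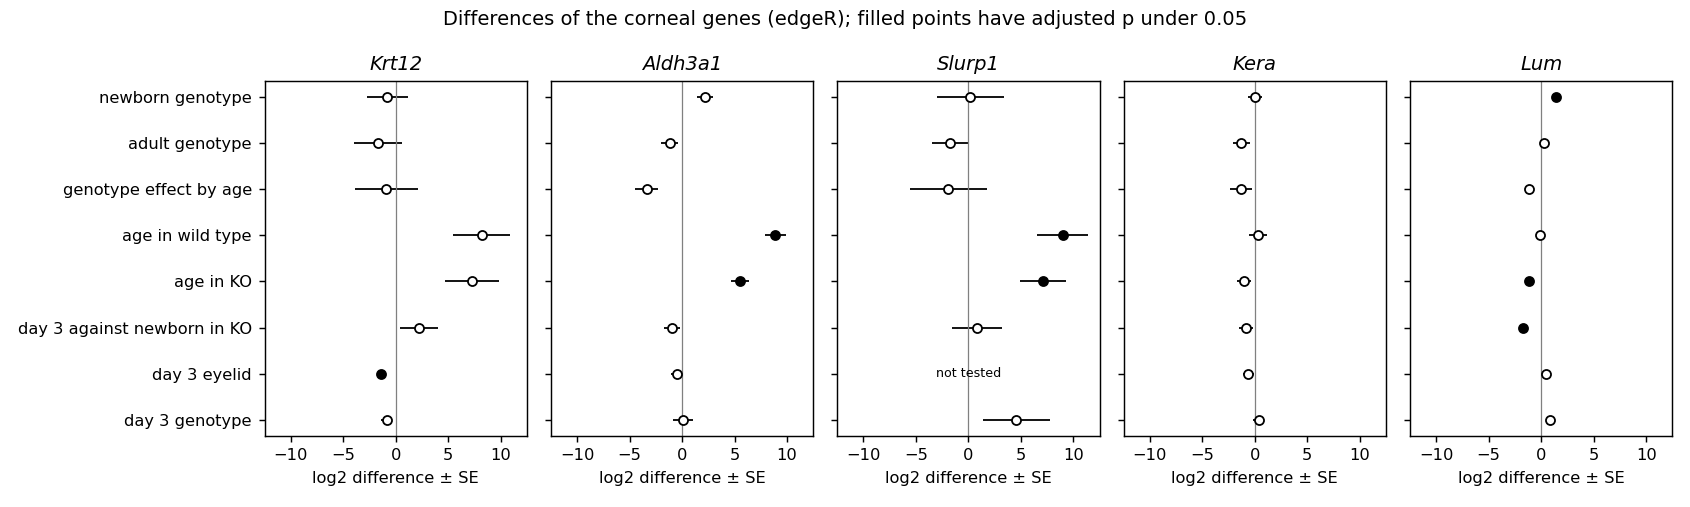
Log2 differences (edgeR) of the 5 corneal genes in 8 comparisons, with bars for 1 SE; filled points have an adjusted p under 0.05. Aldh3a1 and Slurp1 are filled for age in both genotypes, Lum for newborn genotype, age in the labelled knockout and day 3 against newborn, and Krt12 for eyelid state.

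Neighbouring genes, taken by order from RefSeq GRCm38.p6, were compared in level. Kera and Lum lie side by side on chromosome 10 between Dcn and Epyc, all 4 being small leucine-rich proteoglycans. In adult labelled-knockout replicate 1, with Kera at 3.63 scaled RPKM, Lum (67.7), Dcn (296) and Epyc (2.81) were each the highest of the 3 adults. Slurp1 lies on chromosome 15 near Psca and Lypd2, of the same family. Lypd2 had 982 in the adult wild type and 2.42 to 3.65 in newborns, and in day 3 eyes 1.60 to 4.87 with open and 3.73 to 18.9 with closed eyelids. Its eyelid difference of -1.71 ± 0.58 did not pass (adjusted p = 0.557), and that of Psca in the same cluster was 5.41 (adjusted p = 0.00894). Psca was also higher in newborn labelled knockouts (173 and 49.8 against 0.995 and 0.0497), where Slurp1 had at most 16 reads. Krt12 lies between Krt10 and Krt20 on chromosome 11. Krt10, a keratin of epidermis, was at 9.80 in the adult wild type and at 158 and 239 in the adult labelled knockouts. Aldh3a2, beside Aldh3a1 on chromosome 11, was at 9.66 to 23.1 in all 15 libraries.

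Genes with the most similar pattern were ranked by Pearson correlation of log2 CPM over the 15 libraries among 12913 genes, as a description, since libraries share age, depth and tissue. For Krt12 these were Slc4a11 (0.91), Lypd2 (0.89), Tkt (0.88), an abundant enzyme of the cornea, Cyp51 and Haus7 (0.84 each). For Aldh3a1 they were Tnfaip3 (0.98), Mgst3, St8sia6, Hlf and Cdr2 (0.97 each), and for Slurp1 Efcab6, Rffl, Bmp4, Cdr2 and Dtnbp1 (0.89 to 0.90). For Kera they were Rnaseh2b (0.86), Tmem72 (0.82), Rnd3 (0.80), Haus1 (0.79) and Ppwd1 (0.76), and for Lum Dsel (0.96), Fap, Igf1, Sept2 and Aspn (0.92 to 0.93). Without the 3 adult libraries the 5 nearest genes were all others, except Dsel for Lum. Between the members themselves, Krt12 and Slurp1 correlated at 0.70 over 15 libraries and -0.30 over the 12 young ones, Aldh3a1 and Slurp1 at 0.88 and 0.54, Kera and Lum at 0.35 and 0.58, and Krt12 and Lum at -0.29 and -0.79.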

How the data were processed

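Poly(A)+ RNA was sequenced without keeping its strand, per the labels' protocols. The submitters' processing notes name the build mm8 and, among the tools, TopHat2 2.0.11, Bowtie 0.12.9, SAMtools and CASAVA 1.8. The counting tool and annotation are not given in the sources used here, and the protocols mention fixatives as well as RNAlater without saying which eyes either applies to. The deposited tables hold the authors' raw read counts and RPKM for 24373 RefSeq transcripts.

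The members and gene lists were chosen with earlier results of these data known. The quasi-likelihood test of edgeR 4.0.16 (R 4.3.3) was run on the counts after TMM scaling and filterByExpr, with adjusted p by Benjamini-Hochberg over all genes tested at a threshold of 0.05. SE is the log2 difference divided by the square root of F. DESeq2 1.42.0 was an alternative, with other scaling, filters, transcripts and libraries left out. The contrast used the authors' deposited RPKM with a pseudocount of 0.1. Named were the 5 members, up to 4 genes of a list with the smallest p, the 5 genes most similar to each member (mean of at least 1 RPKM, prior count 2), and markers. Chosen after their values were seen were Krt5, Krt14, Krt15, Pax6, Klf4, Chst5, Dcn, Psca and the neighbouring genes. Of the listed genes, 7 were not in the tables. The fits were tested on simulated data. Replicate numbers were not treated as pairs. Added after seeing the data were deposited RPKM as levels and leaving out the right eye of E32.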

Additional observations from a re-analysis of the deposited data

Results flagged for a closer look

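Slurp1 in the right eye of E32 (4.65 scaled RPKM) stood far from the other 3 open eyes at day 3 (0, 0 and 0.304), by a test for 1 extreme value. Chance passes that test in about 1 of 20 groups of independent, normally spread values. This rate cannot be relied on here, since the other 3 values were at or near the limit of detection and 0.304 was the left eye of E32. The right eye of E32 had the highest epidermis marker sum of day 3, at 2297.

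The genotype effect differed between adults and newborns (adult minus newborn, edgeR adjusted p under 0.05) for 7 of 29 genes of the corneal epithelium list. They were Cdh1 (-2.72), Ehf (-3.15), Psca (-7.94), Elf3 (-3.70), Aqp3 (-2.82), Klf5 (-2.66) and Trp63 (-2.60), in log2. Of 29 stromal genes 2 were called, Foxc1 (-2.70) and Tgfbi (-3.85), where 2.8% of all genes were called. In Cdh1, Ehf, Psca, Elf3, Foxc1 and Tgfbi, both newborn labelled knockouts were above both newborn wild types. The same newborn values went into the difference by which these genes were picked, so this order is no separate evidence. These calls rest on few libraries: of 492 genes called in all, 0 were called without either newborn wild type and 109 without newborn labelled-knockout replicate 1, where no gene of these 2 lists was.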

How the results depend on the processing

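The calls for Aldh3a1 with age in both genotypes and for Lum with age in the labelled knockout held without any 1 library. Each other call for the 5 genes was lost without at least 1 library or mouse. The cause of each shift below was not tested unless the setting itself holds fewer samples. Slurp1 had few reads in young eyes, where 5 of 12 libraries had 0 reads. Among these was the deepest library, the right eye of E28 (43907093 reads in transcripts). The part of depth was not tested. The lone adult wild type and lone heterozygous mouse give those groups no spread of their own.

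Other scaling, filters, tools or subsets moved these values (log2 differences; edgeR unless DESeq2 is named). In newborn genotype, 1 of the 5 genes was called, 2 with the authors' library totals, 2 with DESeq2 and 2 with only the 4 libraries compared. Aldh3a1 passed in these 3 settings at 2.34, 2.14 and 2.13. Kera had -0.022 with size factors, -0.059 with a mean of at least 5 RPKM, -0.022 with DESeq2 and -0.033 with the 4 libraries. For the genotype effect by age DESeq2 called 1 gene, Lum (-1.10, adjusted p = 0.0342). For age in the wild type, Krt12 passed with the authors' totals (8.24), no filter (8.19) and DESeq2 (8.17), Slurp1 did not pass with DESeq2 (9.09), and Lum had 0.013 with the authors' totals. For age in the labelled knockout, Krt12 passed with the authors' totals (7.24), no filter (7.26) and DESeq2 (7.29), and Slurp1 did not with a mean of at least 5 RPKM (7.14), DESeq2 (7.21) or the 4 libraries (7.09). With closed eyes only, Slurp1 had -1.55 at day 3 against newborn, and the day 3 genotype values were 0.05 for Krt12 and -0.39 for Aldh3a1. For eyelid state, 0 genes of the 5 were called with the authors' totals (Krt12 -1.45) and with all transcripts summed (Krt12 -1.41), and Aldh3a1 had 0.43 with no replicate block for the mouse.

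Newborn and adult replicate numbers share only a number: the correlation of same-numbered deviations was 0.03 for newborns and 0.13 between the labelled knockouts. With a replicate block 3 genes were called in newborn genotype, Krt12 (-0.87, adjusted p = 0.00905), Aldh3a1 (2.01) and Lum, with Slurp1 at -0.041 and Kera at -0.046. For age in the labelled knockout Slurp1 did not pass with the block (5.12), and calls in the epithelial list went from 7 to 1.

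The contrast was -2.98 in newborn wild type, -3.31 in newborn labelled knockout, -1.55 in closed labelled-knockout and -0.93 in heterozygous eyes with a pseudocount of 1. With 0.01 it was -4.65 in newborn labelled knockout and -2.64 in heterozygous eyes. As a ratio of summed levels it was -2.27, -2.42, 0.29 and 0.92 in the 4 groups, turning sign in closed eyes.

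Leaving out 1 library or mouse gave these ranges. In newborn genotype 0 to 2 genes were called, with Aldh3a1 at 1.48 to 2.67, Slurp1 at -5.53 to 5.77, Kera at -0.18 to 0.22 and Lum at 1.13 to 1.60. In adult genotype 0 to 3 were called, with Krt12 at -11.22 to -0.70, Slurp1 at -8.17 to -0.73 and Kera at -3.21 to -0.50. For the genotype effect by age 0 to 4 were called, with Krt12 at -10.45 to 0.10, Aldh3a1 at -4.86 to -2.65, Slurp1 at -8.38 to 3.80 and Kera at -3.25 to -0.52. For age in the wild type 1 to 3 were called, with Krt12 at 7.79 to 8.84, Slurp1 at 8.11 to 14.60 and Lum at -0.21 to 0.17. For age in the labelled knockout Krt12 was at -2.23 to 8.27, Slurp1 at 0.66 to 12.78 and Kera at -2.92 to -0.24. At day 3 against newborn 0 to 1 were called, with Slurp1 at -2.57 to 7.09 and Lum at -2.09 to -1.49. For eyelid state 0 to 1 were called, with Krt12 at -1.68 to -1.16, Kera at -1.64 to 0.35 and Lum at -0.12 to 1.00. In day 3 genotype Aldh3a1 was at -0.61 to 0.54 and Kera at -0.14 to 0.55. The contrast of adult labelled knockouts was at -0.92 to 4.49.

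Over all genes, adult calls were 0, 33 with the authors' totals, 13 with no filter and 107 with DESeq2. Eyelid calls were 81, 369 with DESeq2, 400 without a mouse term, 210 with E24 and E29 only, 138 without the right eye of E32, and 0, 1 and 129 without E24, E29 and E32. Day 3 against newborn gave 3207, 4924 with DESeq2 and 6938 with closed eyes only. Its median over all genes was -0.08, or -0.30 with the authors' totals, where Lum fell by 1.95 on the log2 scale (adjusted p = 0.00999).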
